A study of Caenorhabditis elegans with 66 samples.

Results

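The small piRNA cluster lies on Caenorhabditis elegans chromosome IV, and its right segment, from 5.75 to 7.5 Mb, is described here. The loci were taken by position and name alone: every annotated 21ur locus of the deposited coordinate table on chromosome IV that starts in this interval was kept, apart from 1 locus left out by the selection, and predicted loci named novel_ were not taken. This gave 1098 loci of the 13211 with coordinates, and all of them have a row in the count table. The neighbouring left segment of the same cluster, from 4.5 to 5.75 Mb, holds 1023 annotated loci, and the large cluster from 13.0 Mb to the end of the chromosome holds 9057.

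Small RNA was sequenced from whole worms of 2 ages: L4 larvae (48 h) and gravid adults (72 h). The study concerns gene copies related to SNAPC1, a subunit of a transcription factor complex for small nuclear RNAs, and piRNAs that differ between the sexes. Set A of the libraries holds snpc-1.2(-), snpc-1.3(-) and wild type (N2); set B holds snpc-1.2(-); snpc-1.3(-), mut-16(-), hrde-1(-), prg-1(-) and wild type; of set C only wild type was used. Set C is the name given here to the libraries whose titles state no set. Each of the 18 groups of a set, genotype and age had 3 libraries. Total RNA was treated with 5' polyphosphatase in every group. The labels give neither the alleles nor whether the 3 replicates came from separate cultures, so the p-values measure the spread between libraries. The table counts piRNAs alone, so the RNA of the mutated genes was not measured and the genotypes could not be checked.

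C. elegans piRNAs, also called 21U-RNAs, are short germline RNAs that usually begin with uracil and are carried by the Argonaute protein PRG-1. Most loci are transcribed by RNA polymerase II as separate short precursors, each from its own small promoter, and are crowded in broad regions of chromosome IV. Hermaphrodites make sperm during the L4 stage and oocytes as adults. MUT-16 scaffolds the assembly that amplifies secondary small RNAs, and HRDE-1 is a nuclear Argonaute that carries such secondary RNAs.

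The 12 loci on which the results below turn are shown as the deposited table gives them (build WBcel235), 5′ to 3′, with T for U and with the first base in capitals, because a first T is the usual mark of a piRNA in these tables. The first 3 were among the highest in wild-type larvae of sets A and B, and the next 4 among the highest in wild-type adults of those sets. The next 2 took a larger share of counts without both snpc genes, and the last 3 were lower in mut-16. Of the 12 loci, only 21ur-13678 and 21ur-13688 start with another base than T.
21ur-6053: Tcgacctgttgttcaatcgac
21ur-4395: Tcgtgtcactattggatcaat
21ur-2245: Tttgtcgacgttatggaaagt
21ur-4302: Ttggtttgtgaacatctcatg
21ur-5543: Tgaattcggctgattattatc
21ur-2309: Tgctctgtggataaatctgtg
21ur-5622: Tacgtgtgtcgagggttgtga
21ur-5541: Tgctcgtctaatttggtaaga
21ur-2021: Tgaaaatcgactaaatctgcc
21ur-6864: Tgttgtattgcactaaagggt
21ur-13678: Gttttgttaggttggaatata
21ur-13688: Gagttaaggcaattaatatga

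All 1098 sequences are 21 bases long, and their coordinates and gene IDs equal the WBcel235 annotation. A first T was present in 1044 loci (95.1%), against 99.3% of loci in the left segment and 97.6% in the large cluster. The 54 loci with another first base were unevenly placed: 41 of them lie among the 144 loci between 6.0 and 6.1 Mb. None of the sequences is listed at another locus of the table (0 cases). The plus strand carries 542 loci and the minus strand 556.

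The loci thin out from left to right. Bins of 250 kb hold 404, 301, 201, 90, 72, 15 and 15 loci, from a first start at 5750724 to a last end at 7431588. The median distance between neighbouring starts was 500 bases and the largest 68144, while 176 neighbouring pairs start under 100 bases apart. In 138 cases a locus overlaps the next one, so the split of their reads is uncertain, and whether counting used the strand is not given in the sources used here. Outside protein-coding genes lie 554 loci, in introns 478 (219 on the strand of the gene, 259 on the other) and in exons 66. The 105 host genes include kcc-2, a potassium chloride cotransporter gene with 71 loci in its introns, and unc-77, a sodium leak channel gene with 44.

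The edges of the interval fall between loci of low or middling level. The first loci inside, 21ur-5146 and 21ur-6494, averaged 1.06 and 0 counts per 1000000 piRNA counts (CPM) in wild type of set A at 72 h, against 0.856 and 0.336 CPM at 48 h. Just outside, 21ur-9519 at 5746867 averaged 18.9 ± 19.2 CPM at 72 h, against 111 ± 40.4 CPM at 48 h (SD, n = 3 each). At the other end, the last locus, 21ur-12337, averaged 7.86 ± 1.79 CPM at 72 h, against 129 ± 32.4 CPM at 48 h. The next locus outside, 21ur-10300 at 7529271, averaged 1.93 ± 2.48 CPM at 72 h, against 25.7 ± 3.90 CPM at 48 h.

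Apart from prg-1, the double snpc mutant and set C, the libraries held 132848 to 2276260 piRNA counts, of which 7986 to 110356 fell on the 1098 loci. The double mutant libraries held 16101 to 34162 piRNA counts and 508 to 1100 at these loci, and the prg-1 libraries 3167 to 10864 and 67 to 154. Wild type replicate 3 of set C at 72 h stands apart, with 9912 piRNA counts and 263 at these loci. A low-count filter kept 625 of the 1098 loci (56.9%), against 8512 of all 17114 piRNAs (49.7%). The 473 loci below it held at most 3.04% of the region's counts in any library other than those of prg-1. Counts of changed loci below are over the 625, set beside the same over the 8512, and a locus that passed the filter through 1 group where it is high had to differ between groups.

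In wild type the region's piRNAs took a smaller share of all piRNA counts in adults than in larvae, and most of its tested loci changed with age. In set A the share was 3.54%, 3.36% and 3.45% at 72 h, against 5.43%, 5.30% and 5.40% at 48 h. In set B it was 3.41%, 4.73% and 3.47% at 72 h, against 5.28% ± 0.08 at 48 h (SD, n = 3). The ages did not overlap within either set, although set B replicate 2 at 72 h lay above its partners. Set C gave 3.50% ± 0.74 at 72 h, against 4.72% ± 0.05 at 48 h (SD, n = 3 each), and its replicate 3 at 72 h was at 2.65%. In whole worms, fewer cells of a type and less RNA per cell cannot be told apart.

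Of the 625 tested loci, 386 fell (61.8%) and 140 rose (22.4%) in adults against larvae over the 3 sets, by edgeR's quasi-likelihood test with a Benjamini-Hochberg adjusted p below 0.05. Of all tested piRNAs, 45.6% fell and 35.0% rose. The median log2 difference was −2.16 over the tested loci and −0.31 over all tested piRNAs. The left segment showed a like split, with 61.6% of its tested loci lower and 24.4% higher, while the large cluster had 49.4% lower and 35.8% higher. Set A alone called 391 lower and 97 higher, against 44.2% and 29.6% of all, and set B alone 376 lower and 119 higher, against 44.1% and 27.7%. Set C called 237 lower and 50 higher, against 28.1% and 15.4%. Of the 488 loci called in set A and the 495 called in set B, 458 were called in both, all in the same direction. These 458 loci are 93.9% of the set A calls and 92.5% of the set B calls. Without replicate 3 of set C at 72 h, the 3 sets together called 417 lower and 144 higher. With all libraries taken as equal in size, a setting added after the data were seen that compares counts and not shares, 391 were lower and 61 higher. Over all tested piRNAs that setting gave 4019 lower and 1672 higher.

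The locus 21ur-6053 (IV:6138551-6138571, plus strand, outside genes) was the most abundant of the region in larvae. Its level was 306, 216 and 308 CPM in adults, against 2663, 1663 and 2243 CPM in larvae of set A. In set B it was 296, 452 and 496 CPM in adults, against 2448, 1957 and 2923 CPM in larvae. The ages do not overlap, and over the 3 sets its log2 difference was −2.64 (SE 0.17, edgeR adjusted p = 1.9e-26). The locus 21ur-4395 (IV:6475793-6475813, minus strand, outside genes) behaved alike, with 116, 82.9 and 114 CPM in adults of set A, against 1017, 961 and 974 CPM in larvae, a log2 difference of −3.03 (SE 0.17, adjusted p = 1.4e-28).

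Adult levels were carried by other loci. 21ur-5543 (IV:5920617-5920637, plus strand, in an intron of dhhc-13, a gene of the DHHC palmitoyltransferase family) had 1406, 1351 and 1218 CPM in adults of set A, against 363, 452 and 405 CPM in larvae. It is overlapped by 21ur-8472 on the other strand and by a predicted locus. 21ur-2309 (IV:5901148-5901168) had 1021, 1193 and 1099 CPM in adults of set A, against 286, 369 and 357 CPM in larvae. 21ur-4302 (IV:5956169-5956189, minus strand, outside genes) had 2745, 2197 and 3023 CPM in adults, against 860, 1082 and 732 CPM in larvae of set A, and it overlaps 21ur-14741, which is offset by 1 base on the same strand. In set B its ages overlapped, with 2365, 3066 and 933 CPM in adults, against 1449, 1169 and 647 CPM in larvae. 21ur-5622 (IV:6281641-6281661, plus strand, in an intron of srv-32, a gene of a chemoreceptor family, on the other strand) had 2400, 2045 and 1766 CPM in adults of set A, against 1155, 871 and 1209 CPM in larvae. In set C this locus was scarce, with 23.0, 40.8 and 0 CPM in adults, against 18.1, 39.9 and 19.8 CPM in larvae.

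Called loci that were at least 2-fold higher in adults, with no overlap in any of the 3 sets, numbered 2 (0.32%, against 0.846% of all tested piRNAs): 21ur-6424 and 21ur-5721. 21ur-6424 had 192, 192 and 196 CPM in adults of set A, against 53.3, 56.5 and 53.5 CPM in larvae (log2 difference over the sets 1.26, SE 0.17, edgeR adjusted p = 2.3e-10). The nearby 21ur-5721 had a log2 difference of 1.32 (SE 0.21, adjusted p = 3.5e-08). In the other direction 194 loci met the same conditions (31.0%, against 23.3% of all). Adult counts were also more concentrated: the 8 highest loci held 34.7% of the region's counts in adults of set A and 34.8% in set B, against 17.3% and 18.9% in larvae.

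The age difference grew steeper along the region. In the first 250 kb the summed level was 17003, 16437 and 17199 CPM in adults of set A, against 19817, 20905 and 19861 CPM in larvae, a log2 difference of −0.26 (SE 0.03). In the fourth bin it was 440, 340 and 592 CPM in adults, against 3733, 3403 and 3593 CPM in larvae, a log2 difference of −3.00 (SE 0.23). In the seventh bin it was 55.7, 27.6 and 48.9 CPM in adults, against 596, 672 and 624 CPM in larvae. Adults and larvae did not overlap in any of these bins, and the outer bins were nearly emptied in adults.

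The same order held in the other sets. The first bin differed by −0.14 (SE 0.18) in set B and the fourth by −2.85 (SE 0.09). In set C the first bin differed by −0.24 and the fourth by −1.84 (SE 0.60). Grouped after these values were seen, the 192 loci of bins 4 to 7 summed to 1030 ± 211 CPM in adults of set A, against 7341 ± 46.0 CPM in larvae (SD, n = 3 each). The remaining 906 loci of bins 1 to 3 differed by −0.47 in log2 (SE 0.02) in set A and −0.31 (SE 0.16) in set B, against −2.85 (SE 0.17) and −2.61 (SE 0.09) for the outer loci.

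**Figure D1:**
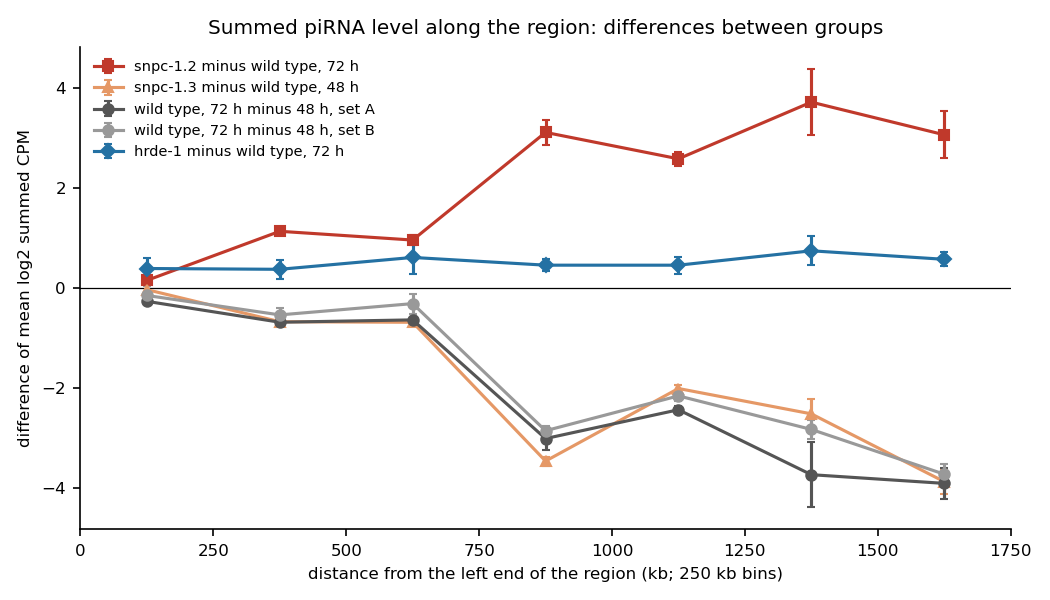
Difference between groups of the mean log2 summed CPM (y axis) in 7 bins of 250 kb from the left end of the region (x axis, kb), with standard errors as bars, 3 libraries a group. Wild-type adults lie furthest below larvae from the fourth bin on, snpc-1.3 larvae lie below wild-type larvae in the same bins, snpc-1.2 adults lie above wild-type adults there, and hrde-1 adults are evenly above wild type by 0.38 to 0.75.

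Loci with opposite age patterns were interspersed. Over the 3 wild-type sets, 368 tested loci were larva-enriched (58.9%) and 97 adult-enriched (15.5%), where enriched means at least 2-fold and called. Over all tested piRNAs these shares were 42.6% and 27.9%, and in the left segment 59.5% and 15.9%. Of the outer 97 tested loci 77 were larva-enriched (79.4%) and 5 adult-enriched, against 291 of 528 (55.1%) and 92 of the inner loci. Among 464 neighbouring pairs with a class, 146 were of opposite class, and so were 55 of the 196 pairs that start under 1000 bases apart. By strand and place the mix varied less: larva-enriched loci made up 57.8% on the plus and 60.0% on the minus strand, 61.6% outside genes and 55.2% in introns.

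Without snpc-1.3, larvae had low levels of the region's larva-enriched piRNAs and raised levels of its adult-enriched ones. The region's share of piRNA counts was 3.80%, 3.50% and 3.96% in snpc-1.3 larvae, against 5.43%, 5.30% and 5.40% in wild-type larvae, with no overlap. The counts themselves were 48.1% of wild type. Counts given as a percent of wild type, here and below, are not corrected for sequencing depth, which a table of piRNAs alone does not give. By this measure the region held 158% in mut-16 larvae and 267% in mut-16 adults, and 125% and 141% in hrde-1. Of the tested loci 378 fell (60.5%) and 144 rose (23.0%), against 42.4% and 30.8% of all tested piRNAs (edgeR adjusted p below 0.05). The median log2 difference was −2.64, against −0.19 over all, and with TMM scaling, which moves the median of all piRNAs by 0.50, the gap between these medians remained at −2.44. With equal library sizes 382 loci fell and 17 rose, so most of the rises called in share were not called in counts. Over all tested piRNAs 3567 fell and 377 rose in that setting.

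Split by age class, with the classes taken from wild type of set B so that no library is shared, the loci separated by direction. The 369 larva-enriched loci summed to 3899 ± 44.1 CPM in snpc-1.3 larvae, against 34928 ± 2464 CPM in wild-type larvae (SD, n = 3 each), and 355 fell and 0 rose. The 108 adult-enriched loci summed to 17615 ± 732 CPM in the mutant, against 6601 ± 1254 CPM in wild type, and 98 rose and 0 fell. In counts, the larva-enriched loci were at 7.69% of wild type and the adult-enriched loci at 182%. Over all tested piRNAs of these classes 92.9% of the larva-enriched fell and 80.9% of the adult-enriched rose.

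Among single loci, 21ur-6053 had 65.6, 41.4 and 73.1 CPM in snpc-1.3 larvae, against 2663, 1663 and 2243 CPM in wild-type larvae (log2 difference −5.18, SE 0.32, edgeR adjusted p = 8.6e-27). 21ur-4395 had 22.7, 20.7 and 24.4 CPM, against 1017, 961 and 974 CPM (−5.43, SE 0.33, adjusted p = 5.5e-27). Both lay lower in the mutant larvae than in wild-type adults. By contrast 21ur-2245 (IV:6162942-6162962, in an intron of unc-77 on the other strand) kept more, with 380, 359 and 345 CPM in the mutant, against 1420, 977 and 1215 CPM (−1.74, SE 0.28, adjusted p = 6.6e-08).

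The adult loci were higher. 21ur-5543 had 1104, 1329 and 1517 CPM in snpc-1.3 larvae, against 363, 452 and 405 CPM in wild-type larvae (log2 difference 1.69, SE 0.26, edgeR adjusted p = 2.1e-08). 21ur-2309 had 998, 1009 and 1236 CPM, against 286, 369 and 357 CPM (1.68, SE 0.29, adjusted p = 5.0e-07). 21ur-4302 had 3219, 1222 and 3629 CPM, against 860, 1082 and 732 CPM (1.59, SE 0.40, adjusted p = 0.00050), and its mutant replicate 2 lay just above wild type. With equal library sizes none of these 3 was called (edgeR adjusted p = 0.154, 0.179 and 0.209). Along the region, the first bin differed by −0.02 (SE 0.08) and the fourth by −3.45 (SE 0.09), where the mutant had 327 ± 31.2 CPM and wild type 3576 ± 166 CPM (SD, n = 3 each).

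In snpc-1.3 adults less changed. The share was 3.32%, 3.39% and 2.80%, against 3.54%, 3.36% and 3.45% in wild-type adults, and the groups overlap. Of the tested loci 103 fell (16.5%) and 0 rose, against 11.4% and 0.0587% of all piRNAs, and all 103 are among the larva-enriched loci. Those loci summed to 2480 ± 299 CPM in the mutant, against 5022 ± 970 CPM in wild type (SD, n = 3 each). 21ur-6053 had 88.6, 58.9 and 32.1 CPM in the mutant, against 306, 216 and 308 CPM (log2 difference −2.20, SE 0.30, edgeR adjusted p = 6.9e-09, and 0.056 with equal library sizes). 21ur-4395 had 11.9, 17.8 and 8.65 CPM, against 116, 82.9 and 114 CPM (−3.01, SE 0.35, adjusted p = 1.2e-10). Leaving out wild type replicate 3 gave 64 lower loci in place of 103.

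Without snpc-1.2 the larva-enriched piRNAs were raised in adults and the adult-enriched ones were low at both ages. The region's share was 6.12%, 6.01% and 6.48% in snpc-1.2 adults, against 3.54%, 3.36% and 3.45% in wild-type adults, and 6.97%, 6.74% and 7.03% in snpc-1.2 larvae, against 5.43%, 5.30% and 5.40% in wild-type larvae. The groups do not overlap at either age. The uncorrected counts were lower, at 47.0% of wild type in adults and 82.5% in larvae, so a larger share went with fewer counts.

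In adults 379 tested loci rose (60.6%) and 150 fell (24.0%), against 49.9% and 30.6% of all tested piRNAs (edgeR adjusted p below 0.05). TMM scaling, which moves the median of all piRNAs by −1.93, gave 217 higher and 208 lower, and with equal library sizes 154 were higher and 188 lower. Over all tested piRNAs TMM gave 1962 higher and 3669 lower, and equal sizes 1246 and 3341. The median log2 difference was 2.61 over the region and 1.51 over all piRNAs, and the gap was 1.14 with TMM. In larvae 83 rose (13.3%) and 134 fell (21.4%), against 3.1% and 26.1% of all. There the rises depended on the scaling, since TMM (a shift of −0.97) and equal sizes gave 0 higher loci, against 188 and 139 lower. Over all tested piRNAs these settings gave 5 and 4 higher, against 3703 and 2266 lower.

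The age classes from set B separated these loci too. In adults the larva-enriched loci summed to 47129 ± 2577 CPM without snpc-1.2, against 5022 ± 970 CPM in wild type (SD, n = 3 each), and 349 rose and 0 fell. Their counts were 251% of wild type. The adult-enriched loci summed to 2264 ± 169 CPM, against 16007 ± 1375 CPM, with 0 higher and 104 lower of 108, and their counts were 3.69% of wild type. Over all tested piRNAs 90.0% of the larva-enriched rose and 83.5% of the adult-enriched fell. In larvae the larva-enriched loci kept 101% of the wild-type counts, and 77 of the 369 rose (20.9%, against 6.22% of all piRNAs of this class). The adult-enriched kept 17.3%, and 100 of the 108 fell (92.6%, against 76.4%).

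The adult locus 21ur-5543 was almost absent without snpc-1.2. It had 12.9, 0 and 0 CPM in mutant adults, against 1406, 1351 and 1218 CPM in wild-type adults (log2 difference −8.45, SE 0.53, edgeR adjusted p = 3.2e-26). In larvae each mutant library held 1 count, or 1.26, 1.50 and 1.67 CPM, against 363, 452 and 405 CPM in wild type (−7.95, SE 0.49, adjusted p = 1.2e-26). Fitted changes of that size depend on the prior count. 21ur-2309 had 6.47, 0 and 3.63 CPM in mutant adults, against 1021, 1193 and 1099 CPM. 21ur-4302 kept a little more, with 71.2, 30.1 and 43.6 CPM, against 2745, 2197 and 3023 CPM (−5.78, SE 0.55, adjusted p = 3.8e-12).

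The larval locus 21ur-6053 had 2706, 3440 and 3649 CPM in snpc-1.2 adults, against 306, 216 and 308 CPM in wild-type adults (log2 difference 3.57, SE 0.29, edgeR adjusted p = 8.2e-20). All 3 adult libraries lay above the 1663 to 2663 CPM of wild-type larvae of set A. 21ur-4395 had 835, 1310 and 1454 CPM, against 116, 82.9 and 114 CPM (3.54, SE 0.29, adjusted p = 1.3e-19). 21ur-2245 reached 6460, 3026 and 3376 CPM, against 399, 328 and 571 CPM (3.31, SE 0.30, adjusted p = 1.8e-17), and was above every wild-type larval library. With TMM the differences of 21ur-6053 and 21ur-2245 were smaller, at 1.59 and 1.33, and with equal library sizes 21ur-2245 was not called (edgeR adjusted p = 0.063).

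**Figure D2:**
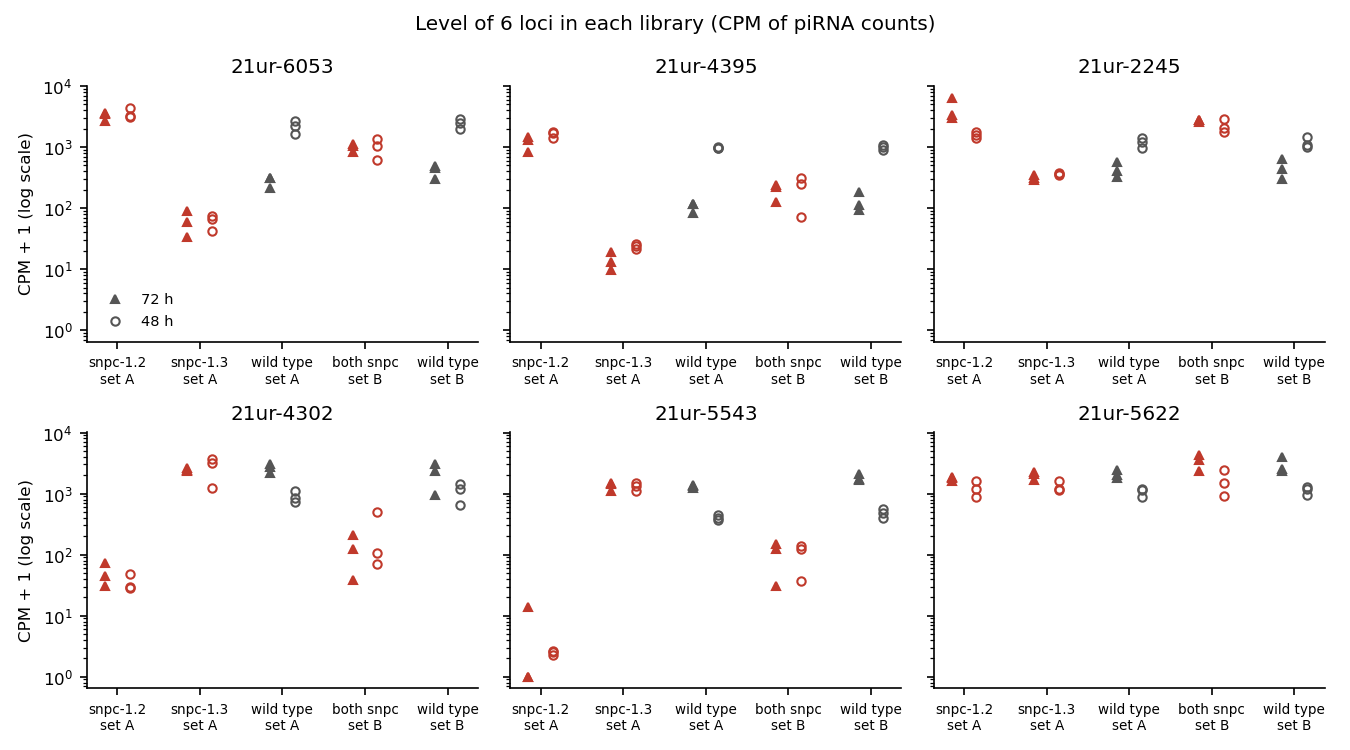
CPM of piRNA counts plus 1 on a log axis for 6 loci in each of 3 libraries a group, with 72 h as filled triangles left of 48 h as open circles. In the upper panels 21ur-6053, 21ur-4395 and 21ur-2245 lie higher in snpc-1.2 than in snpc-1.3 at both ages. Against wild type, 21ur-2245 was not called in snpc-1.2 larvae or in snpc-1.3 adults. In the lower panels 21ur-4302 and 21ur-5543 lie lower in snpc-1.2 than in snpc-1.3, while 21ur-5622 stays between 871 and 4334 CPM in every library shown.

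The outer bins show these shifts most clearly. The fourth bin had 3632, 3688 and 4354 CPM in snpc-1.2 adults, against 440, 340 and 592 CPM in wild-type adults, a log2 difference of 3.12 (SE 0.25), where the first bin differed by 0.16 (SE 0.05). Over bins 4 to 7 the sum was 7734 ± 895 CPM in snpc-1.2 adults, against 1030 ± 211 CPM in wild-type adults, and 1116 ± 52.4 CPM in snpc-1.3 larvae, against 7341 ± 46.0 CPM in wild-type larvae (SD, n = 3 each). In neither comparison do the groups overlap.

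The mutant differences of set A can be set beside the age difference of set B, since they share no library. Over the 625 loci the Pearson correlation with the age difference was 0.884 for snpc-1.3 larvae, 0.587 for snpc-1.3 adults, −0.744 for snpc-1.2 larvae and −0.863 for snpc-1.2 adults. Loci are not independent replicates, and within a comparison all points share the same 6 libraries. The larval snpc-1.3 comparison and the adult snpc-1.2 comparison also share no library. Of 376 loci called and at least 2-fold lower in the first (60.2%, against 41.3% of all tested piRNAs) and 373 called and at least 2-fold higher in the other (59.7%, against 48.8%), 350 were common, which is 93.1% and 93.8% of the lists. Over all tested piRNAs the same 2 lists shared 3240, or 92.2% and 78.1%. The opposite lists of 135 loci (21.6%, against 28.8%) and 144 loci (23.0%, against 29.9%) shared 122, or 90.4% and 84.7%, and over all tested piRNAs 88.6% and 85.4%. The opposite movement was thus found over all piRNAs as well. A single locus, 21ur-13688, fell in both.

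**Figure D3:**
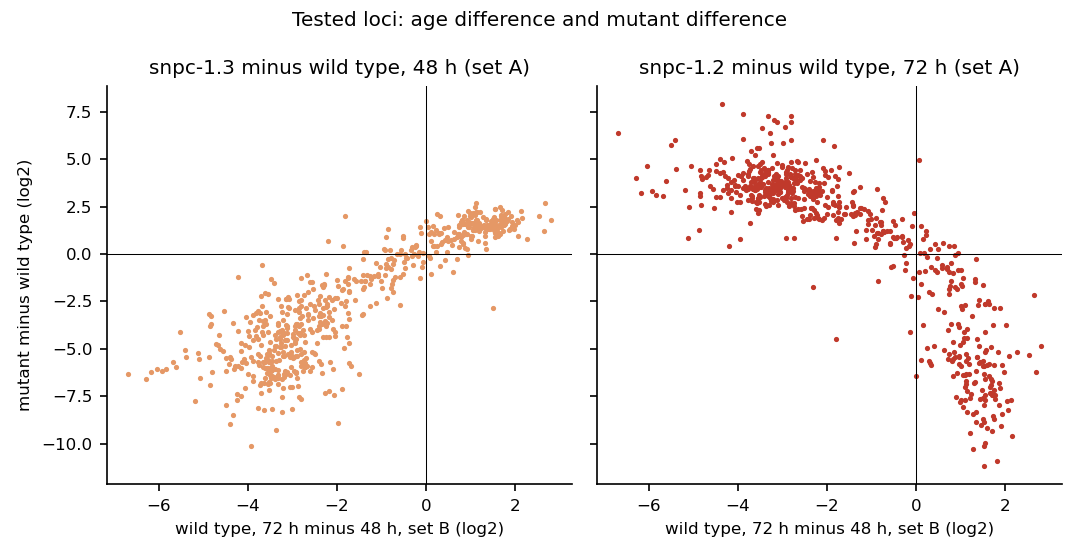
Each point is 1 of the 625 tested loci, with the wild-type age difference of set B on the x axis and the mutant difference of set A on the y axis (both log2). Points run upward for snpc-1.3 larvae (left panel, r = 0.884) and downward for snpc-1.2 adults (right panel, r = −0.863).

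The mutant effects also differed between the ages when that was tested directly. For snpc-1.2, the effect was higher in adults than in larvae at 297 tested loci and lower at 13, against 37.1% and 3.42% of all tested piRNAs (edgeR adjusted p below 0.05). For snpc-1.3, it was higher at 109 and lower at 101, against 16.1% and 20.8% of all. With equal library sizes these counts were 0 and 0 for snpc-1.2 and 58 and 0 for snpc-1.3. Over all tested piRNAs they were then 0 and 0, and 811 and 7.

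The 2 host genes with the most loci were both higher in snpc-1.2 adults and lower in snpc-1.3 larvae, with no overlap. The 71 loci inside kcc-2 summed to 7516 ± 442 CPM in snpc-1.2 adults, against 4942 ± 85.6 CPM in wild-type adults, and to 4671 ± 144 CPM in snpc-1.3 larvae, against 5544 ± 489 CPM in wild-type larvae (SD, n = 3 each). The 44 loci inside unc-77 summed to 8454, 5201 and 5822 CPM in snpc-1.2 adults, against 2293, 1871 and 1922 CPM in wild-type adults, and to 2103 ± 48.0 CPM in snpc-1.3 larvae, against 3451 ± 289 CPM in wild-type larvae (SD, n = 3 each). In the mutant adults 21ur-2245 alone held most of the sum.

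In the mutant that lacks both snpc genes few counts were left. The region held 1.58% of the wild-type counts in larvae and 2.66% in adults, and on average 181 and 179 of the 1098 loci had any count, against 900 and 713 in wild type of set B. The share of piRNA counts was 2.99%, 3.15% and 2.81% in mutant larvae, against 5.28% ± 0.08 in wild type (SD, n = 3), and 2.62%, 3.22% and 3.03% in adults, against 3.41%, 4.73% and 3.47%. Both ages are below wild type without overlap. Against annotated loci alone as the total, however, the share differed by −0.51 percentage points in larvae and by 0.45 in adults, where it was higher.

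The age classes, here from wild type of set A, were both depleted in counts in the double mutant. In adults the larva-enriched loci kept 8.85% of wild-type counts and the adult-enriched 0.225%. As summed levels these were 14874 ± 1823 CPM, against 5956 ± 682 CPM, for the larva-enriched, and 1076 ± 183 CPM, against 16376 ± 4311 CPM, for the adult-enriched (SD, n = 3 each). In larvae the larva-enriched kept 1.24% and the adult-enriched 0.754%. Loci in neither class kept 3.15% in larvae, more than both classes, and 2.93% in adults, between the classes.

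As shares of piRNA counts, 105 tested loci fell (16.8%) and 10 rose (1.6%) in larvae, against 20.4% and 12.5% of all piRNAs, and 74 fell (11.8%) and 55 rose (8.8%) in adults, against 16.4% and 17.2% (edgeR adjusted p below 0.05). With TMM, which moves the median of all piRNAs by −0.92 in larvae and −0.88 in adults, these were 310 lower and 3 higher, and 205 lower and 7 higher. Over all tested piRNAs TMM gave 4050 lower and 901 higher in larvae, and 3377 and 671 in adults. With equal library sizes 619 and 474 loci were lower and 0 higher, so the rises are in share and not in counts. Over all 8512 tested piRNAs 7372 and 6351 were then lower, and 69 and 44 higher. On the deposited log2 values, which the authors normalized and batch-corrected, limma turned the direction round, with 178 higher and 134 lower in larvae and 413 higher and 81 lower in adults. This was so over all tested piRNAs too, with 3194 higher and 2065 lower in larvae, and 4929 and 1455 in adults. With limma the region's median log2 difference was 0.35 in larvae and 1.80 in adults, against −4.20 and −2.39 in edgeR's fit on counts. Without mutant replicate 1 or 3 the larval calls numbered 62 and 70 in place of 115.

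Among the loci whose share rose, 21ur-5541 (IV:6433919-6433939, plus strand, outside genes) stood at 1427, 1366 and 1457 CPM in mutant larvae, against 234, 240 and 232 CPM in wild type (log2 difference 2.59, SE 0.29, edgeR adjusted p = 2.0e-12). Those are 42, 22 and 41 counts, against 220, 192 and 201. 21ur-2021 (IV:5923507-5923527) had 2039, 2298 and 2132 CPM, against 752, 978 and 922 CPM (1.28, SE 0.26, adjusted p = 3.5e-05), with 60, 37 and 60 counts, against 706, 781 and 798. With TMM its difference was −0.11, and with equal library sizes −3.86, against −2.54 for 21ur-5541. Both loci had fewer counts in the mutant than in wild type, and a larger share of what was left.

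21ur-2245 was higher in double mutant adults, at 2596, 2781 and 2755 CPM, against 294, 437 and 633 CPM (log2 difference 2.58, SE 0.30, edgeR adjusted p = 1.2e-11), on 63, 95 and 75 counts, against 206, 427 and 477. With TMM its difference was 0.55 and the call was lost (edgeR adjusted p = 0.197), and with equal library sizes it was −2.25. 21ur-2309 was lower, at 41.2, 29.3 and 73.5 CPM, against 1168, 2234 and 1044 CPM (−4.98, SE 0.58, adjusted p = 1.5e-11). 21ur-4021, a locus inside kcc-2 that was steady without either snpc gene alone, fell to 408, 62.1 and 249 CPM in double mutant larvae, against 1390, 1343 and 1008 CPM (−2.23, SE 0.41, adjusted p = 4.9e-06). In snpc-1.2 larvae that locus averaged 1410 ± 94.0 CPM and in snpc-1.3 larvae 1771 ± 101 CPM, against 1395 ± 197 CPM in wild type of set A (SD, n = 3 each).

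In hrde-1 the region took a larger share of piRNA counts in larvae. The share was 6.32%, 6.70% and 6.61%, against 5.28% ± 0.08 in wild type (SD, n = 3), with no overlap. In adults it was 4.69%, 6.39% and 4.58%, against 3.41%, 4.73% and 3.47%, and the groups overlap because replicate 2 was high in both genotypes. The shift was spread over many loci: 514 of 625 (82.2%) had a log2 difference above 0 in larvae and 501 (80.2%) in adults, against 48.8% and 51.8% of all tested piRNAs. The medians were 0.33 and 0.44, against −0.01 and 0.02 over all.

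No single locus of hrde-1 larvae was called by edgeR (0 of 625, against 0.317% higher and 0.505% lower of all). At an unadjusted edgeR p below 0.05 were 34 loci, against 495 of all 8512 tested piRNAs. TMM, TMMwsp, DESeq2, limma and the replicate block gave 0 calls too. In adults 101 loci were at an unadjusted edgeR p below 0.05, against 833 of all tested piRNAs. After adjustment 3 rose and 0 fell, against 0.411% and 0.916% of all. They were 21ur-126, 21ur-254 and 21ur-6875. 21ur-254 had 118, 372 and 126 CPM in hrde-1, against 78.5, 113 and 94.2 CPM (log2 difference 1.12, SE 0.31, edgeR adjusted p = 0.041), and its call was lost without mutant replicate 2 or without any 1 of the 3 wild-type libraries, with a difference of 0.35 at the lowest. It was lost too with TMM (adjusted p = 0.052), TMMwsp (0.065) and DESeq2 (0.125). Leaving that library out gave 0 calls and a share difference of 0.764 percentage points in place of 1.35. Without mutant replicate 1 or 3 there were 5 calls, without wild type replicate 1 there were 0, and without wild type replicate 3 there was 1.

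The left segment was tilted to higher values in hrde-1 as well: 83.8% of tested loci in the left segment and 42.8% in the large cluster were above 0 in larvae, and 78.4% and 49.2% in adults. The log2 ratio of the region's counts to those of the large cluster was −3.65, against −3.99 in wild type, in larvae, and −4.02, against −4.49, in adults. Its ratio to the left segment was 0.35, against 0.33, and 0.46, against 0.42. Across the 7 bins of the region the hrde-1 differences ran from 0.24 to 0.49 in larvae and from 0.38 to 0.75 in adults, so the outer bins did not stand apart as they did with age.

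**Figure D4:**
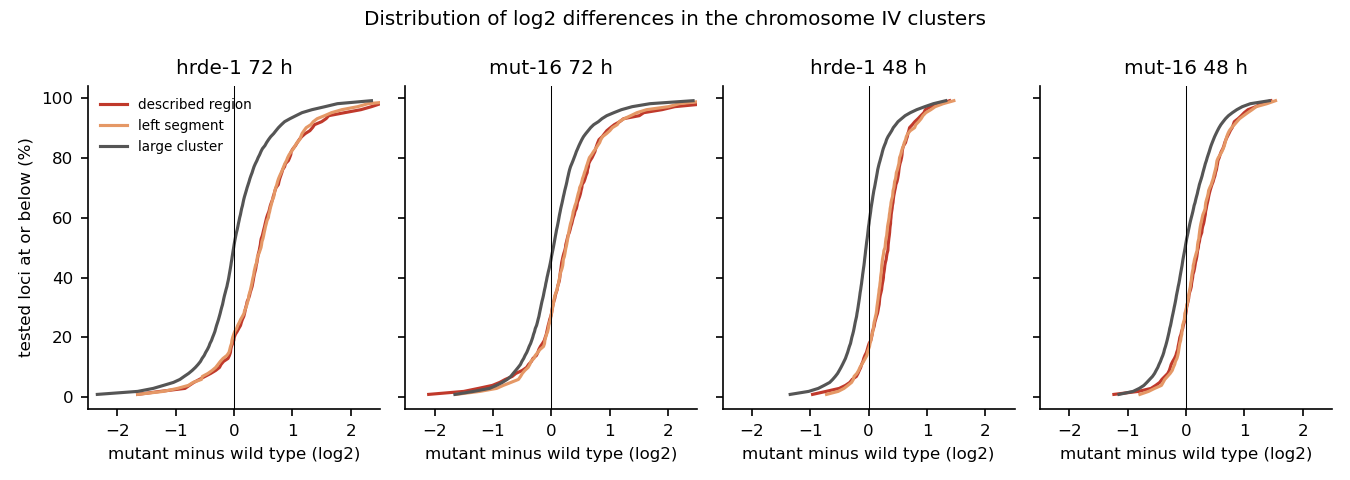
Percent of tested loci at or below each log2 difference between mutant and wild type (x axis), for hrde-1 and mut-16 at each age. The curves of the described region (625 loci) and of the left segment lie to the right of the large cluster, with region medians of 0.44 and 0.33 for hrde-1 adults and larvae and 0.24 and 0.21 for mut-16.

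In mut-16 the region's share was also above that of wild type in larvae. It was 6.11% ± 0.24 in the mutant, against 5.28% ± 0.08, and 4.39% ± 0.54 in adults, against 3.87% ± 0.74 (SD, n = 3 each), and only the larval groups do not overlap. The medians were 0.21 and 0.24, against −0.01 and 0.03 over all, with 71.7% and 72.2% of tested loci above 0, against 49.2% and 52.6%. Few loci were called: 2 rose and 3 fell in larvae, against 0.352% and 3.55% of all piRNAs, and 3 rose and 4 fell in adults, against 0.446% and 6.9%. Leaving out mut-16 replicate 1 or wild type replicate 3 gave 3 larval calls in place of 5, and leaving out wild type replicate 1 gave 9. In adults, 3 calls were left without mut-16 replicate 1 and 2 without replicate 2, in place of 7.

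The falls in mut-16 were deep but concern scarce loci. 21ur-6864 (IV:6959371-6959391, in an intron of the kinase gene jnk-1 on the other strand) had 2.01, 2.02 and 3.71 CPM in mut-16 larvae, against 39.4, 31.3 and 31.2 CPM in wild type (log2 difference −3.65, SE 0.51, edgeR adjusted p = 9.5e-07). In adults the adjoining 21ur-13678 (IV:6971822-6971842) and 21ur-13688 (IV:6971866-6971886), both on the plus strand outside genes and both starting with G, fell together. The first had 2.20, 2.70 and 7.17 CPM, against 18.6, 21.5 and 19.9 CPM (−2.40, SE 0.51, adjusted p = 0.00029), and is overlapped by 21ur-10869 on the same strand and by a predicted locus. The other had 0, 1.35 and 1.59 CPM, against 17.1, 10.2 and 6.63 CPM (−3.40, SE 0.81, adjusted p = 0.00066). 21ur-15611, which starts with C in an intron of glf-1, was higher in mut-16 larvae, at 17.4, 8.08 and 11.1 CPM, against 0, 1.25 and 0 CPM (4.44, SE 1.13, adjusted p = 0.0027), on 26, 8 and 12 counts.

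Without prg-1 almost nothing remained, so no locus was tested. The region held 0.245% of the wild-type counts in larvae and 0.358% in adults, and its share was 1.75% ± 0.35, against 5.28% ± 0.08, and 1.29% ± 0.07, against 3.87% ± 0.74 (SD, n = 3 each). A count was seen at 73.3 loci on average in larvae and 71.7 in adults. The highest included 21ur-4302, with 5, 2 and 9 counts in larvae and 2, 4 and 10 in adults. 21ur-6424 held 5, 16 and 8 counts in prg-1 adults, against 90, 157 and 102 counts in wild-type adults. Since few piRNA counts were left, these were 824, 1672 and 736 CPM in prg-1 adults, against 129, 161 and 135 CPM in wild-type adults.

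In the single snpc mutants the region's ratio to the left segment lay near that of wild type, while its ratio to the large cluster moved further. Wild-type group means of the log2 ratio to the left segment ran from 0.19 to 0.42 over sets and ages. The log2 ratio to the left segment was 0.30 in snpc-1.2 and 0.25 in snpc-1.3 larvae, against 0.29 in wild type, and 0.36 and 0.35 in adults, against 0.36. To the large cluster it was −3.55 and −4.51 in larvae, against −3.96, and −3.56 and −4.78 in adults, against −4.64. In the double mutant the ratio to the left segment was 0.34, against 0.33, in larvae and 0.40, against 0.42, in adults. Its ratio to the large cluster was −3.95, against −3.99, in larvae and −4.20, against −4.49, in adults. In hrde-1 adults the ratio to the left segment was 0.46, against 0.42. In prg-1 larvae it was 0.06, against 0.33, on 67 to 154 counts in a prg-1 library. The prg-1 ratio to the large cluster was −3.91, against −3.99, in larvae and −3.98, against −4.49, in adults.

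**Figure D5:**
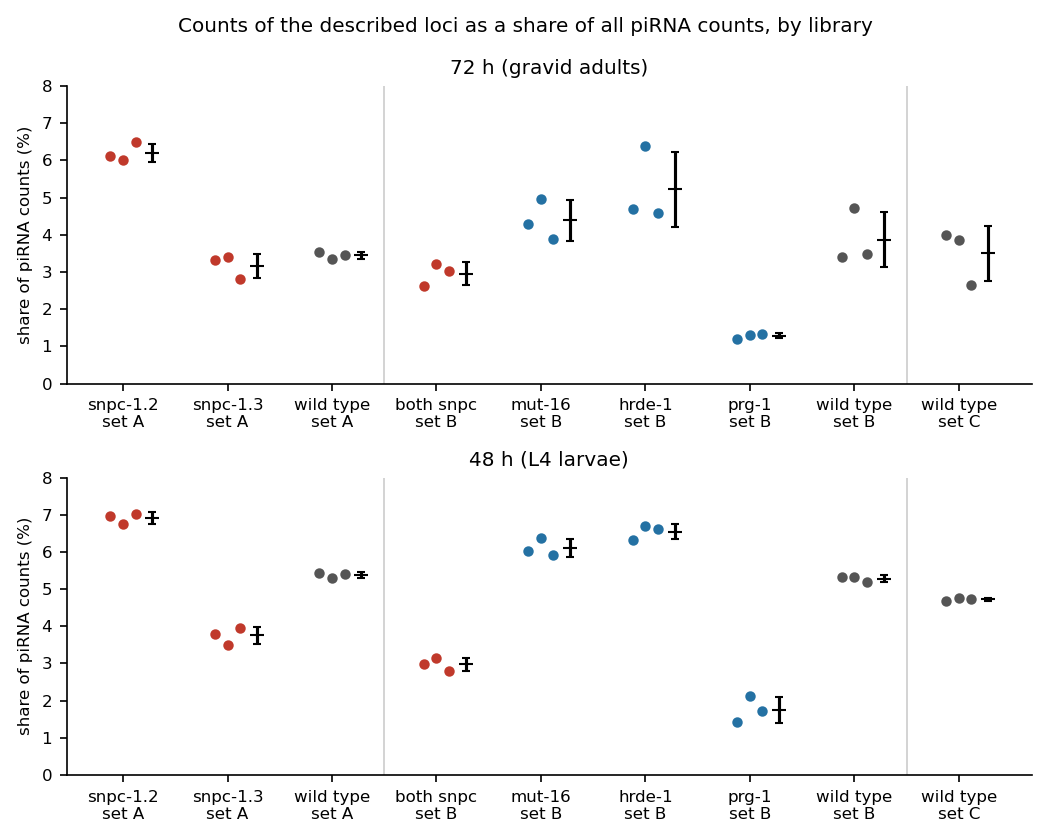
Share of all piRNA counts that fell on the 1098 loci (y axis, percent) in each library, by genotype and set, at 72 h (upper panel) and 48 h (lower panel), with the mean and SD of 3 libraries beside the points. snpc-1.2 lies above wild type of set A at both ages, snpc-1.3 below it at 48 h, hrde-1 above wild type of set B at 48 h, and the double mutant and prg-1 below at both ages.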

How the data were processed

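Counts per piRNA were deposited as raw counts, per the file headers, in a table of piRNAs alone, so a column sum is not the depth of a library. The values of a second deposited table are log2 CPM that its header calls batch-corrected and normalized; it gave coordinates and sequences, and its log2 values entered 1 alternative test with limma 3.58.1. Trimmomatic 0.39, Bowtie 1.1.1, HTSeq and edgeR are named in the submitters' processing notes, with build WBcel235; the counting settings are not given in the sources used here. Libraries of the study numbered 66, of which 12 have no column and were not analysed here, and 12 columns match no sample and were not used.

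Loci were tested with edgeR 4.0.16 (quasi-likelihood F test, robust, R 4.3.3) on the deposited counts of all piRNAs, with 54 libraries and 18 groups in 1 fit. Mutants were set against the wild type that shares their set and age. The library size was the sum of piRNA counts, so a log2 difference is a change in the share of piRNA counts (CPM). The filter was filterByExpr (minimum count 10, minimum total 15), and calls needed a p below 0.05 after Benjamini-Hochberg adjustment over 8512 piRNAs. Log2 differences are printed as edgeR shrinks them, while their SE is that of the unshrunken estimate. DESeq2 1.42.0, TMM, TMMwsp, other filters, the replicate block, a fit on the compared set alone and leaving out each library were alternatives. The fit was run on simulated counts that kept wild-type composition, with 200 piRNAs changed 4-fold. It recovered 38.5% of these for snpc-1.2 adults, 65% for snpc-1.3 larvae, 15.5% for double mutant larvae and 64% for hrde-1 larvae. False calls numbered 2, 3, 0 and 3. Shifts in composition such as those of the snpc mutants were not simulated.

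Summed counts, shares and ratios carry no p: with 3 libraries against 3 the exact permutation test cannot go below 0.1, and the loci and lists were chosen with earlier results of these data known. Differences of bins are of mean log2 summed CPM. Named loci are the 8 with the highest mean CPM in wild type of sets A and B at each age, and, per comparison, the highest among called loci that changed 2-fold or more with no overlap of the groups (8 per direction for age, 4 for a mutant); for prg-1, the 4 with the highest counts at each age. The edges of the interval, 21ur-126, the 2 host genes and the set C loci were chosen apart from that rule. Same-numbered libraries were checked for pairing: in hrde-1 larvae against wild type each number correlated above 0.1 (0.169, 0.182 and 0.108), and the blocked fit also called 0 loci there. The highest correlations with another number there were −0.084, −0.029 and 0.00018. A search for upstream promoter motifs was not run, since no genome was used here.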

Additional observations from a re-analysis of the deposited data

Results flagged for a closer look

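The effect of losing snpc-1.2 differed between the ages at 310 of the 625 tested loci, by the test of the difference itself (adult effect minus larval effect, edgeR adjusted p below 0.05). Over all 8512 tested piRNAs 3448 were called. The effect was higher in adults at 47.5% and lower at 2.08% of the tested loci, against 37.1% and 3.42% of all. With equal library sizes 0 loci were called. Of the 41 named loci the difference was called positive at 24 and negative at 3. Many of these loci were named for changes in the same libraries, so the split among them follows in part from that choice. Among the 13 named for a snpc-1.2 comparison it was positive on the log2 scale at 21ur-4276 (3.05), 21ur-6053 (2.87), 21ur-2245 (2.92), 21ur-4395 (2.83), 21ur-2707 (2.77), 21ur-2087 (2.58), 21ur-7159 (1.97) and 21ur-2933 (1.95), all of which were lower in wild-type adults than in wild-type larvae. It was negative at the adult-abundant 21ur-2309 (−2.62) and 21ur-2191 (−1.52). Loci named for other comparisons went further, such as 21ur-6145 (3.83), 21ur-6448 (3.62), 21ur-14982 (3.27) and 21ur-4327 (3.19).

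The effect of losing snpc-1.3 differed between the ages at 210 tested loci by the same test, against 3145 of all 8512 tested piRNAs. It was higher in adults at 17.4% and lower at 16.2% of the tested loci, against 16.1% and 20.8% of all. With equal library sizes 58 loci were called higher and 0 lower. At 15 of the 41 named loci the difference was called positive and at 10 negative. This split too follows in part from how the loci were named. Among the 10 named for a snpc-1.3 comparison the difference was positive at 21ur-6053 (2.97), 21ur-4327 (2.49), 21ur-4395 (2.42), 21ur-7888 (1.56), 21ur-2933 (1.48) and 21ur-2245 (1.28), where the larval fall was larger than the adult one. It was negative at 21ur-4302 (−1.70), 21ur-5543 (−1.69), 21ur-2309 (−1.61) and 21ur-2191 (−1.48), which were higher than wild type in mutant larvae. Outside those 10, 21ur-6145 (4.53), 21ur-6448 (3.23), 21ur-6424 (−1.87) and 21ur-5721 (−1.77) were further from 0 on either side. 21ur-4327 had 38.8, 35.4 and 21.8 CPM in snpc-1.3 larvae, against 732, 781 and 706 CPM in wild-type larvae, and 19.8, 15.1 and 12.4 CPM in snpc-1.3 adults, against 72.0, 51.0 and 74.2 CPM in wild-type adults.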

How the results depend on the processing

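Values here are counts of tested loci called by edgeR unless another tool is named, and log2 or percentage point differences between mutant and wild type, or 72 h and 48 h. The setting with equal library sizes was chosen after seeing the data; it compares counts and not shares. The cause of these changes was not tested, except that a minimum count of 50 leaves fewer loci to test. With it the calls were 141 and 287 for snpc-1.2 at 48 and 72 h, 276 for snpc-1.3 at 48 h, 3 and 4 for mut-16, 284 for wild type with age, and 197 for the snpc-1.2 difference between ages. With equal sizes they were 139 and 342 for snpc-1.2, 42 for snpc-1.3 at 72 h, 619 and 474 for the double mutant, 3 and 42 for mut-16, 0 for hrde-1 at 72 h, and 0 and 58 for the snpc-1.2 and snpc-1.3 differences between ages.

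TMM called 313 and 212 loci in the double mutant, 11 in mut-16 and 1 in hrde-1 at 72 h; TMMwsp called 18 in mut-16 at 48 h and 0 in hrde-1 at 72 h; DESeq2 called 199 in the double mutant at 48 h, 15 in mut-16 and 0 in hrde-1 at 72 h. limma on the deposited log2 values called 125 for snpc-1.2 at 48 h, 312 and 494 for the double mutant (more higher than lower, where edgeR's fit called more lower), 9 for mut-16 at 48 h and 347 for the snpc-1.3 difference between ages. With the replicate block, and likewise with the compared set alone, mut-16 had 16 calls at 48 h and hrde-1 8 at 72 h, and the block gave 11 for mut-16 at 72 h. Outside hrde-1 larvae same-numbered libraries did not all correlate above 0.1. In most comparisons, however, a library correlated more with its same-numbered partner than with the others of that group, though weakly. Exceptions were replicate 3 in snpc-1.2 adults, replicates 1 and 3 in mut-16 adults, and, between wild-type ages, replicates 2 and 3 of set B and replicate 3 of set C. The numbers may thus pair the libraries, and the main fit takes no account of it. The block changed no call of a named locus (67 of 67 kept). For snpc-1.2 larvae it called 124 loci higher and 137 lower, in place of 83 and 134. Over all tested piRNAs it called 501 higher and 2255 lower there, in place of 264 and 2223.

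In the double mutant the sign of the log2 difference changed with the scaling at 21ur-2021, to −0.11 at 48 h and −0.54 at 72 h with TMM, −0.057 at 72 h with DESeq2, and −3.86 and −3.38 with equal sizes. With equal sizes it also changed at 48 h for 21ur-2073 (−2.84), 21ur-5541 (−2.54) and 21ur-6424 (−3.11), and at 72 h for 21ur-2245 (−2.25), 21ur-2073 (−2.73) and 21ur-5541 (−2.05). Against annotated loci alone, the share of the double mutant at 72 h was 0.447 percentage points above wild type. Without the most abundant locus the log2 ratio to the left segment differed by −0.023 for snpc-1.2 and 0.063 for snpc-1.3 at 48 h, and by 0.00375 for snpc-1.3 and −0.00815 for hrde-1 at 72 h.

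Leaving out 1 library in turn gave 62 to 111 calls for the double mutant at 48 h, 64 to 100 for snpc-1.3 at 72 h, 3 to 9 and 2 to 9 for mut-16, and 0 to 5 for hrde-1 at 72 h. The difference in log2 ratio to the left segment then ranged from 0.00081 to 0.025 and from −0.026 to 0.027 for snpc-1.2 at 48 and 72 h, from −0.072 to 0.0049 and from −0.039 to 0.011 for snpc-1.3, and from −0.064 to 0.062 and from −0.082 to 0.012 for the double mutant. It ranged from −0.022 to 0.076 for hrde-1 and from −0.11 to 0.090 for prg-1 at 72 h, and from 0.023 to 0.094 for wild type with age. The difference in log2 ratio to the large cluster ranged from −0.018 to 0.081 for the double mutant and from −0.10 to 0.23 for prg-1 at 48 h. Over the named loci, leaving out a library kept 492 results on their side of the threshold and 30 lost it, with 0 reversed. Low depth limits the double mutant and prg-1, where the region held at most 1100 counts.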

Other observations

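Wild-type larvae of set C held far lower levels than those of sets A and B at some loci of the region. At 19 of the 625 tested loci (3.04%) every larval library of set C lay at least 10-fold below every larval wild-type library of sets A and B, and at 0 loci was it above. Over all tested piRNAs these numbers were 217 (2.55%) and 21 (0.247%). This comparison was chosen after seeing the data and was not tested. The most abundant was 21ur-5622, with 18.1, 39.9 and 19.8 CPM in set C, against 1155, 871 and 1209 CPM in set A and 1300, 944 and 1170 CPM in set B. 21ur-5837 averaged 8.16 ± 2.00 CPM in set C, against 284 ± 12.6 CPM in set A and 255 ± 52.1 CPM in set B (SD, n = 3 each), and 21ur-5175 averaged 8.02 ± 2.20 CPM, against 178 ± 3.52 CPM and 191 ± 48.3 CPM. In adults 21ur-5622 was low in set C too, with 23.0, 40.8 and 0 CPM, against 2400, 2045 and 1766 CPM in set A. The labels do not say how the worms of set C differ from those of the other sets.

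The 54 of the 1098 loci that start with another base than T together held 1.13% to 3.35% of the region's counts, depending on the group.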
